A study of Mus musculus with 6 samples.

Results

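Glutathione S-transferases (GSTs) couple the tripeptide glutathione to reactive compounds, and 10 genes of this family were followed on the arrays: Gsta4, Gstm1, Gstm2, Gstm5, Gstp1, Gstt1, Gsto1, Gstk1, Mgst1 and Mgst3. Members were all probe sets with one of these symbols alone in the array annotation, which gave 16 of 22626 probe sets for 10 of 12393 genes. The genes were selected on earlier E2 against control values of these same arrays. Their differences between treatments are therefore a description with an error, and no test is read from them.

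The cells were mesenchymal cells of the urogenital sinus, the embryonic tissue that gives rise to the prostate, from male CD-1 mouse fetuses at gestation day 17, used at first passage after epithelial cells had been settled out by gravity. Both groups were kept in RPMI-1640 medium with charcoal-stripped fetal bovine and horse serum, insulin, transferrin, selenium and 690 pM dihydrotestosterone (DHT), an androgen that cannot be converted to estrogen. After 3 days without estrogen, E2 cells received 100 nM estradiol (E2) for 4 days and control cells received the ethanol vehicle. There were 3 Affymetrix mouse arrays per group. Whether the replicates came from separate cell preparations, and how many fetuses were pooled, is not given in the sources used here, so the errors and p-values hold for these samples only and may reflect technical spread.

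Each probe set gives one fluorescence signal per array, in arbitrary units, and the signals of different genes do not rank their levels of expression. Array medians ran from 13.7 to 21.8 units, so signals were divided by the median of their array before the log2 transformation. A probe set was tested when its mean as deposited reached 10 units in control or in E2, which 14223 did. An 18S ribosomal RNA control probe set read 281 and 288 units on control replicate 3 and E2 replicate 2, and between 22.8 and 44.7 units elsewhere. These 2 arrays also had the lowest medians, and values without both are given where they matter. Of 10 mesenchyme markers all were tested and 0 were called by limma, also at an unadjusted p under 0.05. Their log2 differences, E2 minus control, were negative for 8 of the 10, against 56.6% of all probe sets tested, with a median of -0.08. The collagen chains Col1a2 and Col1a1 among them had mean signals of 4327 and 3427 units in control and 4085 and 3233 units in E2. Of 5 endothelial markers, Kdr was tested, with means of 19.3 units in control and 19.2 in E2, and the others, Pecam1 among them, were under 10 units in both groups.

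Cytosolic GSTs fall into classes named by Greek letters, which share a fold and differ in the compounds they accept. Alpha, mu and pi enzymes conjugate many electrophiles, and Gsta4 of the alpha class prefers 4-hydroxynonenal, an aldehyde made when membrane lipids oxidize. Kappa enzymes reside in mitochondria and peroxisomes, and the microsomal enzymes Mgst1 and Mgst3 are membrane proteins of a separate family. Many GST genes in other tissues respond to the transcription factor Nrf2, which binds antioxidant response elements in their promoters.

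The RefSeq table (build GRCm38.p6) held promoters of 9 of the 10 genes, all but Gsta4, with 11 start sites in all, and the 250 bases before each start were searched on both strands. The core antioxidant response motif TGACNNNGC was found for Gstm5 and Mgst1, that is 2 of the 11 promoters, against 10.2% of all 32851 promoters. The looser motif TGANNNNGC, which includes every match of the core, was found in 4 of the 11, against 35.2% of all promoters. The stretches below are shown so that the best-known regulatory letters of this family can be set beside the signals that follow, with the motif in capitals and each written 5′ to 3′ on the strand of its gene.

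Gstm5, chr3:107895802-107895830, plus strand: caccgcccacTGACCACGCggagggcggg

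Mgst1, chr6:138140461-138140489, plus strand, motif on the opposite strand: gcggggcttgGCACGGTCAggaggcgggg

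Gstp1, chr19:4037968-4037996, minus strand, looser motif: tccaacgtgtTGAGTCAGCatccggggcg

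Gstt1, chr10:75797802-75797830, minus strand, looser motif: tgctggccgcTGAGAGAGCcctgcgctct

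The Gstp1 stretch starts its motif 74 bases before the start of transcription and holds the letters TGAGTCA, the site of AP-1 factors, which overlap the looser motif. TGAGTCA was in 2 of the 11 promoters, those of Gstp1 and Gstm5, against 4.46% of all. The estrogen response palindrome GGTCANNNTGACC was in 0 of the 11 and in 0.0639% of all promoters. A match describes letters and not a bound site, and a window without one says nothing about the factor.

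With E2, the Gsta4 signal was lower on all 3 arrays and the first probe set of Gstm1 was lower by less. Of the 10 GST genes, 8 had a negative difference, against 56.6% of all probe sets tested, while Gstm5 and Mgst3 had a positive one. With the values as deposited 6 were negative, and with the probe sets of a gene averaged 7 were. Of the 16 probe sets, 12 reached 10 units, all of them in both groups, and every gene had at least 1 of them. Where a gene had several, the brightest, by mean log2 signal, stands for it. The log2 differences, E2 minus control, of the 10 genes ran from -0.84 for Gsta4 to 0.15 for Gstm5, with a median of -0.13, against a median of -0.04 over all probe sets tested. Without Gsta4, the median of the other 9 was -0.07. Limma, across all probe sets and with Benjamini-Hochberg adjustment at 0.05, called 1 GST probe set lower, that of Gsta4, and 0 higher. It called 0.253% of all probe sets lower and 0.492% higher, 0.745% together. These counts and those that follow rest on the values used to choose the genes, so nothing is read from them beside the shares of all probe sets. At an unadjusted p under 0.05, 2 GST probe sets were lower and 0 were higher, against 4.55% and 3.44% of all, or 7.99% in either direction. With a change of at least 1.5-fold as well, the same 2, of Gsta4 and Gstm1, were lower, against 1.88% of all, and 0 were higher, against 2.06%. All E2 arrays lay below all control arrays for 3 of the 12, Gsta4, Gstp1 and the first Gstm1 probe set, and above them for 0, against 8.49% and 5.72% of all probe sets, or 14.2% in either direction. For Gstp1 this rested on the centering, as its groups overlapped in the values as deposited. With 3 arrays against 3, an exact permutation test cannot give a two-sided p under 0.1.

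**Figure D1:**
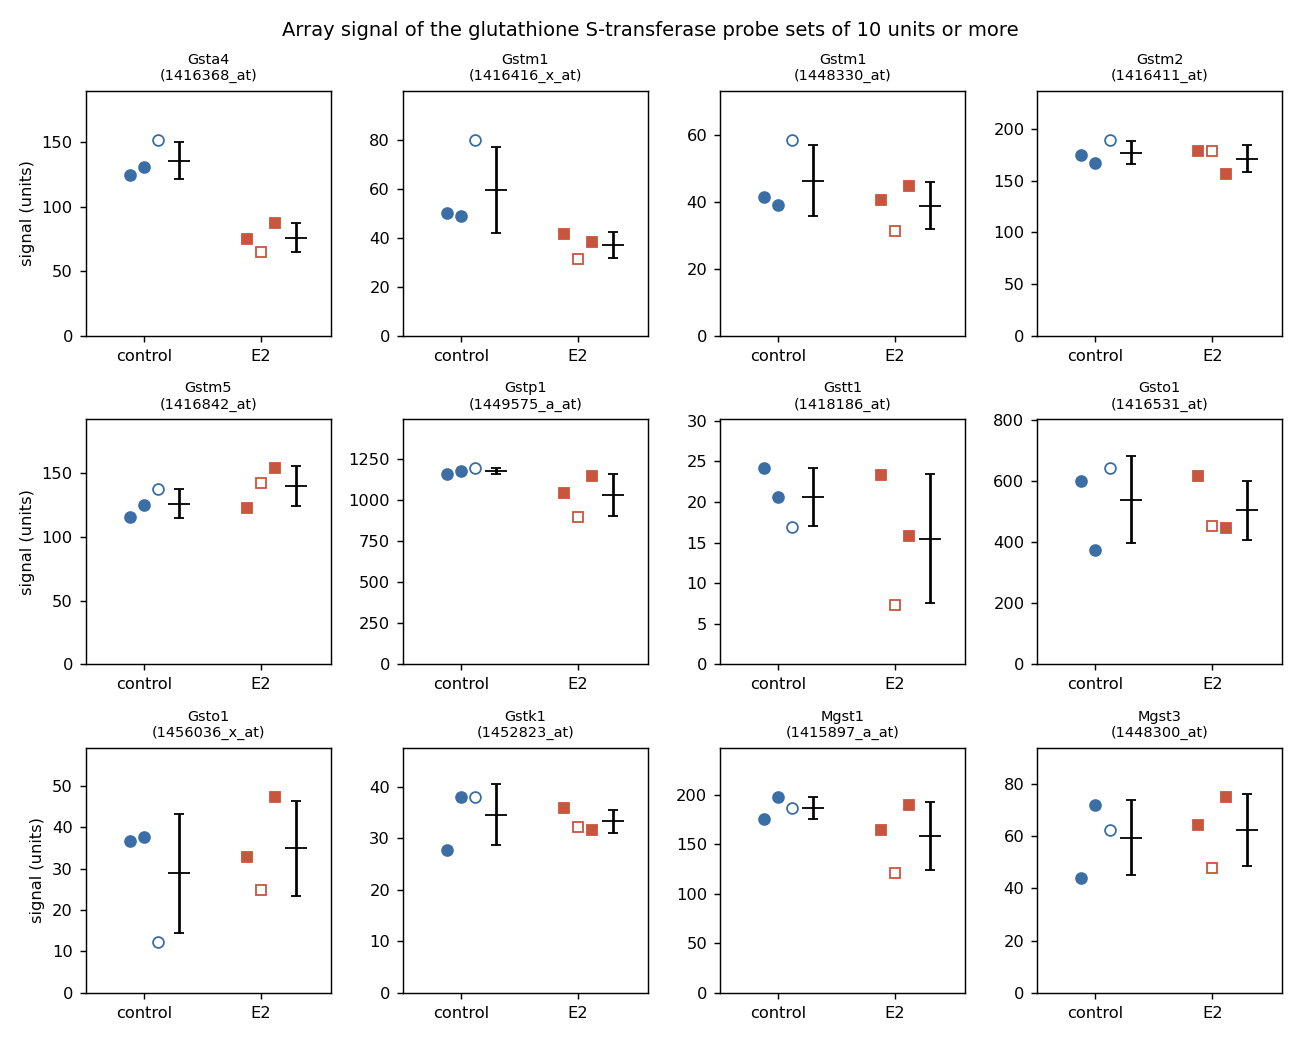
Centered array signal (vertical axes, fluorescence units, linear from 0) of the 12 GST probe sets of at least 10 units, in control (blue circles) and E2 (red squares), 1 point per array, with open symbols for the 2 arrays of high 18S signal. The black bars are the mean and SD of 3 arrays. Gsta4 lies between 125 and 152 units in control and between 65.4 and 87.6 units in E2, while the points of most other panels overlap.

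Gsta4, by its probe set 1416368_at, read 125, 131 and 152 units on control replicates 1 to 3 and 75.0, 65.4 and 87.6 units on E2 replicates 1 to 3. The highest E2 array was below the lowest control array, and the coefficient of variation was 10.5% in control and 14.7% in E2. The control mean was 136 ± 14.2 units and the E2 mean 76.0 ± 11.1 (SD, n = 3 arrays in each), which is 1.79 times lower, with a 95% interval of the log2 difference of -1.18 to -0.50.

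The control array with the highest Gsta4 signal and the E2 array with the lowest were the 2 arrays of high 18S signal. Without both, the Gsta4 mean was 128 units for control and 81.3 for E2, a log2 difference of -0.66, and limma did not call it. It was also not called without a variance trend, without moderation of the variance, with the values as deposited, at a log2 difference of -0.78, or without control replicates 1, 2 or 3 or E2 replicate 1, where the differences were -0.90, -0.87, -0.76 and -0.84. The sign was negative in all 18 alternatives run, but most of them could not turn it. The groups did not overlap, so leaving out arrays keeps the sign. The filters, the replicate block and the variance settings leave the difference itself unchanged.

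**Figure D2:**
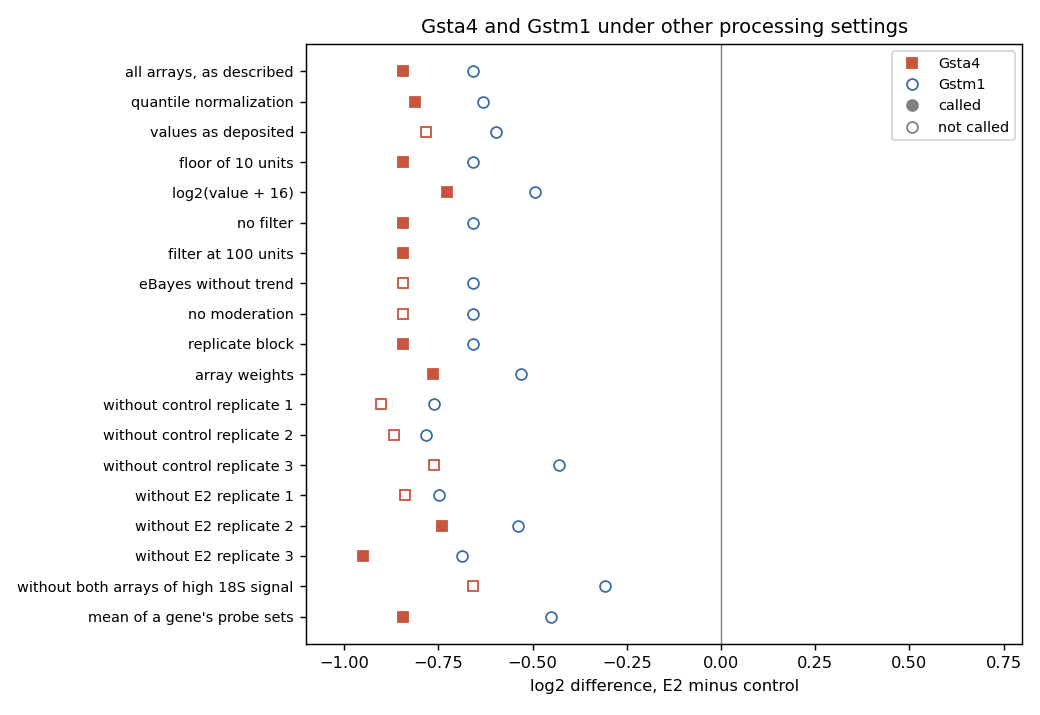
Log2 difference, E2 minus control (horizontal axis), of Gsta4 (red squares) and of Gstm1 by its brightest probe set (blue circles) under each processing setting (vertical axis), filled where limma called the gene and open where it did not. Both genes stay left of 0 in every row, with Gsta4 from -0.95 to -0.66 and Gstm1 from -0.78 to -0.31. Gstm1 has no point at the 100-unit filter, which it did not reach. As the groups of neither probe set overlapped, leaving out arrays could not turn a sign, and the variance and block settings repeat the same difference. The genes were chosen on these values, so the rows are not separate support.

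Markers of other cell types were read on the same arrays. Of 5 smooth muscle markers all were tested, and limma called 0, also 0 at an unadjusted p under 0.05. Their differences were negative for 2 and positive for 3, with a median of 0.04. The brightest, Acta2 and Tagln, had means of 4064 and 2291 units in control and 3747 and 2357 units in E2. All 11 leukocyte markers were tested and had negative differences, against 56.6% of all probe sets, with a median of -0.47. Limma called 0 of them, and 3, C1qb, C1qa and Tyrobp, were lower at an unadjusted p under 0.05, against 4.55% of all. The complement chain gene C1qb had means of 48.4 units in control and 20.1 in E2, without overlap, a log2 difference of -1.24 and an adjusted p of 0.063 from limma. Those of C1qa and Tyrobp were -0.84 and -0.49, also without overlap. The defining marker Ptprc (CD45) read 11.5 to 21.2 units in control and 5.21 to 16.3 units in E2, near the 10-unit filter. The summed signal of the 11 was 659 to 1092 units in control and 595 to 719 units in E2, of which the lysozyme gene Lyz2 alone gave means of 470 and 371 units.

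Of 9 epithelial markers 4 were tested, and the keratin Krt18 was called higher (39.1 ± 2.84 to 72.0 ± 11.5 units, SD, n = 3 each, adjusted p = 0.0416 from limma). Krt8, Krt14 and Krt19 had control means of 6.36, 5.56 and 8.66 units and E2 means of 12.6, 11.0 and 18.8 units, so they passed the filter through E2 alone, which fixed the sign of their differences. Krt7 had means of 6.95 and 1.39 units and was not tested, like Krt5, Cldn4 and the defining markers Epcam and Cdh1, all under 10 units in both groups. The summed epithelial signal was 57.6 to 98.7 units in control and 138 to 142 units in E2, of which Krt18 alone gave means of 39.1 and 72.0 units. The part of these cells in the Gsta4 difference was not tested, and in RNA from whole cultures fewer cells of a type cannot be told apart from less RNA per cell.

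The alpha class is otherwise hardly readable on these arrays. Gsta2, a liver-type alpha enzyme, averaged 3.38 units in control and 1.94 in E2, and Gsta3, an alpha enzyme that conjugates aflatoxin epoxide, had means of 5.27 and 2.39 units. Both were under 10 units in both groups and were not tested, and Gsta1, the neighbor of Gsta4 on chromosome 9, has no probe set of its own. The fall in signal of Gsta4 therefore could not be set against another alpha-class gene.

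Gstm1, a broad conjugating enzyme of the mu class, has 4 probe sets, and the pair that could be read did not give the same difference. The brighter, 1416416_x_at, read 50.3, 48.9 and 79.9 units in control and 41.8, 31.2 and 38.4 units in E2. All E2 arrays lay below all control arrays, but control replicate 3, of high 18S signal, stood well above the other control arrays. The log2 difference was -0.66 (SE 0.22), which is 1.58 times lower, and it was -0.31 when the pair of arrays with high 18S signal was left out.

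The dimmer readable probe set of Gstm1, 1448330_at, read 41.4, 39.2 and 58.5 units in control and 40.7, 31.3 and 44.8 units in E2. Here the groups overlapped, and the log2 difference was -0.24 (SE 0.22, 95% interval -0.71 to 0.22). Without the 2 arrays of high 18S signal its means were 40.3 units in control and 42.8 in E2, so that the direction turned. The suffix x_at marks a probe set with probes that may match other transcripts, and which of them were read was not tested. The further probe sets of Gstm1, 1425626_at and 1425627_x_at, had means of 1.70 to 6.67 units and were not tested.

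Gstm2, a second mu enzyme, read 174, 167 and 189 units in control and 179, 179 and 156 units in E2. The groups overlapped and the log2 difference was -0.05 (SE 0.13), with a 95% interval from 0.80 to 1.17 times the control. Gstm5, the mu enzyme known from brain and testis, read 116, 125 and 138 units in control and 123, 143 and 154 units in E2. Its log2 difference of 0.15 (SE 0.14, 95% interval -0.16 to 0.46) was the highest of the 10 genes, and its groups overlapped as well.

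In the gene order of GRCm38.p6, the mu genes lie side by side on chromosome 3 as Gstm5, Gstm7, Gstm6, Gstm3, Gstm2, Gstm1 and Gstm4. Gstm4, next to Gstm1 and not among the 10, read 21.3, 17.9 and 15.7 units in control and 23.6, 28.5 and 28.8 units in E2. All its E2 arrays lay above all control arrays, opposite to Gstm1, at 0.56 on the log2 scale (SE 0.25, limma adjusted p = 0.617), which did not pass. Gstm3, Gstm6 and Gstm7 were under 10 units in both groups, with means between 1.59 and 6.53 units. The readable mu genes thus had differences of either sign. The 95% interval of the first Gstm1 probe set lay below 0 and that of Gstm4 above it (0.02 to 1.11), while that of the second Gstm1 probe set held 0. These intervals are descriptions and not a test. An unadjusted p under 0.05 from limma was reached by 7.99% of all probe sets.

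Gstp1, the pi enzyme that is found in many proliferating cells, read 1158, 1181 and 1196 units in control and 1048, 899 and 1151 units in E2. The control arrays lay close together (SD 18.7 units) and the E2 arrays were all lower and more spread (SD 127 units). The highest E2 array was only just below the lowest control array. As deposited, the groups overlapped, at 974 to 1367 units in control and 717 to 1460 units in E2. The log2 difference was -0.20 (SE 0.11, 95% interval -0.44 to 0.04), and it was -0.09 with the pair of high 18S arrays left out. Its neighbor Gstp2 has no probe set of its own.

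Gstt1, a theta enzyme that acts on small halogenated compounds, had signals near the filter, at 24.1, 20.6 and 17.0 units in control and 23.3, 7.37 and 15.8 units in E2. E2 replicate 2, of high 18S signal, was under 10 units and decided the difference, which was -0.55 (SE 0.40) on the log2 scale with all arrays and -0.09 without that array. Gstt2 and Gstt3, the other theta genes tested, had differences of -0.01 and 0.30 (limma adjusted p = 0.993 and 0.894).

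Gsto1, an omega enzyme that reduces rather than conjugates many of its substrates, read 598, 376 and 641 units in control and 616, 454 and 445 units in E2 by 1416531_at. The arrays of one group differed more than the groups did, and the log2 difference was -0.07 (SE 0.18). A dimmer probe set, 1456036_x_at, had means of 28.9 ± 14.4 and 34.9 ± 11.4 units (SD, n = 3 each) and a difference of 0.39 (SE 0.38), of the opposite sign. With the mean of both probe sets, the sign of Gsto1 turned to 0.16. It also turned, to 0.14 by 1416531_at, with the pair of high 18S arrays left out.

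Gstk1, the kappa enzyme, read 27.7, 38.1 and 38.0 units in control and 35.9, 32.2 and 31.7 units in E2, with a log2 difference of -0.04 (SE 0.21). The sign of differences as small as those of Gstk1 and Gstm2 has no meaning here, and as deposited they were 0.02 and 0.01. With the pair of high 18S arrays left out, those of Gstk1 and Gstm2 were 0.05 and -0.03.

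Mgst1, the microsomal enzyme of the outer mitochondrial and endoplasmic reticulum membranes, read 176, 198 and 187 units in control and 165, 122 and 190 units in E2 by 1415897_a_at. E2 replicate 2 was the lowest, and the highest E2 array lay among the controls. The log2 difference was -0.26 (SE 0.16, 95% interval -0.61 to 0.09), and -0.08 with the pair of high 18S arrays left out. Mgst3, its relative with peroxidase activity, read 43.9, 71.9 and 62.5 units in control and 64.2, 47.8 and 75.0 units in E2 by 1448300_at, with a difference of 0.07 (SE 0.22). It was 0.30 with the pair of high 18S arrays left out, and its sign turned, to -0.13 and -0.07, without control replicate 1 or E2 replicate 3. Second probe sets of Mgst1 and Mgst3 had means of 1.10 to 2.94 units and were not tested.

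**Figure D3:**
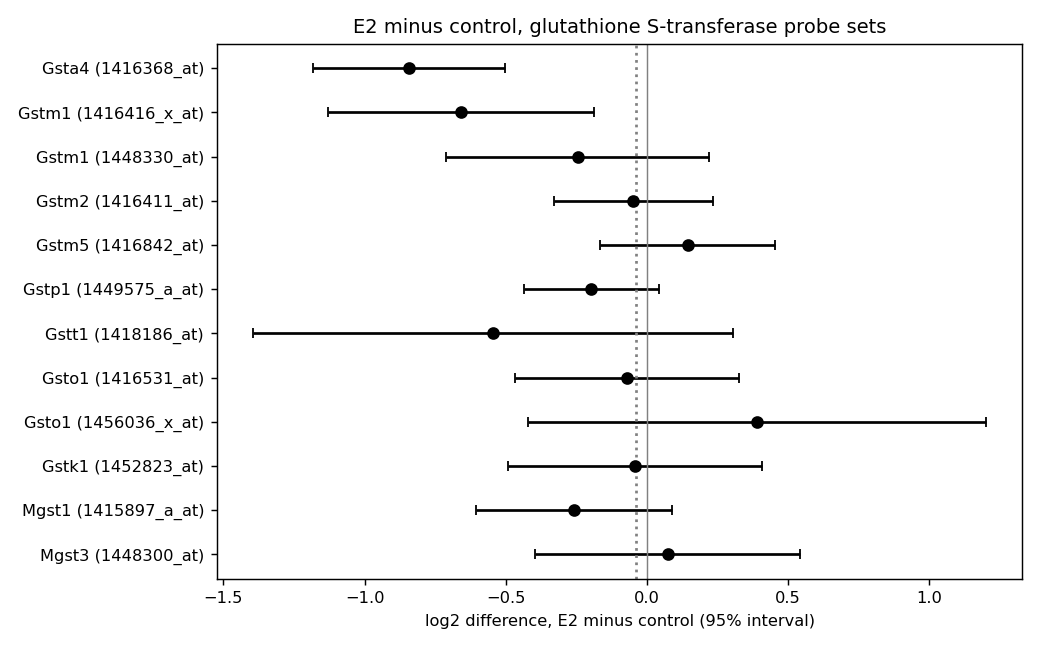
Log2 difference, E2 minus control (horizontal axis), of the 12 GST probe sets (vertical axis), with 95% intervals from limma on 3 arrays per group, a solid line at 0 and a dotted line at the median of all probe sets tested, -0.04. Only the intervals of Gsta4 and of the brighter Gstm1 probe set lie wholly below 0, and that of Gstt1 is the widest downward, from -1.39 to 0.30.

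The intervals describe the precision of each difference, and no bound is read from them, since the genes were chosen on these values. By the brightest probe set, the 95% interval of 7 of the 10 genes lay within a 2-fold change in either direction. The exceptions were Gsta4, Gstm1 and Gstt1, and the dimmer probe set of Gsto1 had an interval from -0.42 to 1.20. The share of all probe sets with an interval within 2-fold was not counted. An interval that holds 0 does not show that a gene kept its level.

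The 10 genes were also set against their group means on each array. The medians of their deviations ran from -0.20 to 0.15 on the log2 scale over the 6 arrays. On E2 replicate 2, 8 of the 10 lay below the E2 mean, with a median deviation of -0.20 on the log2 scale, and on control replicate 3, 1 of the 10 lay below the control mean, with a median of 0.12. On these arrays of high 18S signal, both deviations widened the gap toward a lower signal with E2. Deviations of like size occurred on other arrays as well. On control replicate 1, 8 of the 10 lay below the control mean, with a median of -0.10, and on E2 replicate 3 the median was 0.15. Without both arrays of high 18S signal, the median difference of the 10 genes was -0.05 in place of -0.13, and 6 in place of 8 were negative. What the 18S signal of these arrays reflects was not tested.

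**Figure D4:**
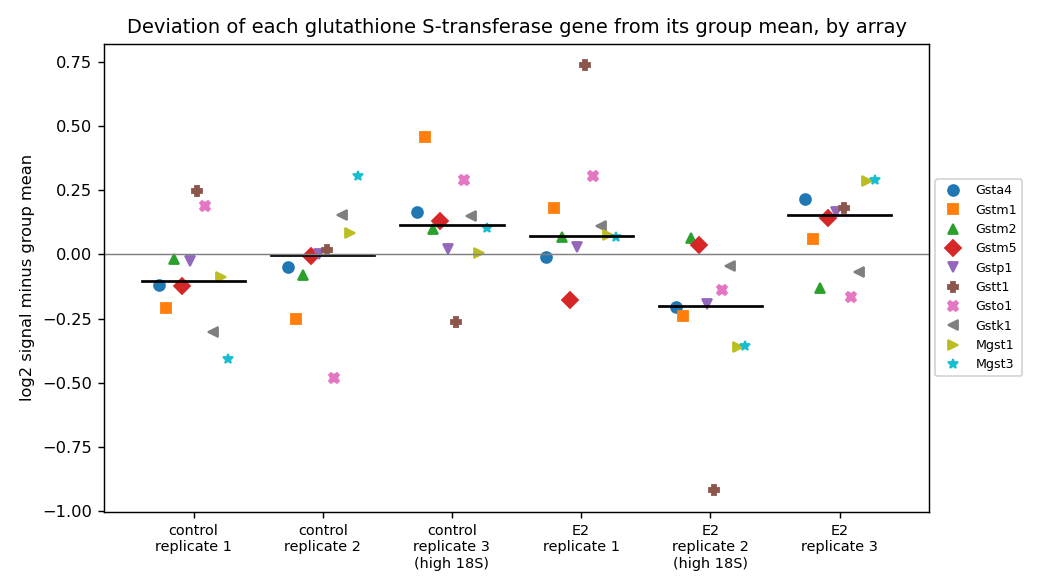
Deviation of each of the 10 GST genes from its own group mean (vertical axis, log2) on each array (horizontal axis), 1 marker per gene, with the median of the 10 as a black line. The median is -0.20 on E2 replicate 2 and 0.12 on control replicate 3, and Gstt1 has the widest spread, from -0.92 to 0.74 on E2 replicates 2 and 1.

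After the group means were removed, Gstp1 and Mgst1 had a Pearson correlation of 0.98 over the 6 arrays and Mgst1 and Mgst3 of 0.83, while Gstm2 and Mgst1 had -0.60. The value of 0.98 was the highest of all pairs. Both of its genes deviated most on E2 replicates 2 and 3, Gstp1 by -0.19 and 0.16 and Mgst1 by -0.36 and 0.28. Over all 45 pairs the median was 0.32, and 34 were above 0. All pairs share the same arrays and centering, and pairs of other genes were not set beside them, so these values are descriptions. With the group means kept, the genes whose log2 signal over the 6 arrays was most like that of Gsta4, among 2580 genes with a mean of at least 100 units, were Dcn (decorin, a matrix proteoglycan, r = 0.995), Cnn3 (a calponin that binds actin, 0.994), Capn6 (a calpain without protease activity, 0.992), Ctnnb1 (beta-catenin, 0.988) and Cops2 (a subunit of the COP9 signalosome, 0.988). Their log2 differences were -0.18, -0.27, -1.28, -0.20 and -0.33. These were the highest of 2580 values over 6 arrays in 2 groups, and how many others came close was not counted. As the group means were kept, the negative signs follow from how these genes were picked. Dcn is also among the mesenchyme markers read above.

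Other genes of glutathione biology were read from 6 lists of 77 genes in all. Of these, 65 had a probe set with a single symbol and 49 were tested. Limma called 0 of the 49. At an unadjusted p under 0.05 2 were higher, against 3.44% of all probe sets, and 0 were lower, against 4.55%. Their median log2 difference was -0.07, and 31 were negative, or 63.3%, against 56.6% of all probe sets tested.

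Among other glutathione transferases, 4 of 15 genes were tested, and Gstm4 and Gstz1 were the 2 with an unadjusted p under 0.05. Gstz1, the zeta enzyme of tyrosine breakdown, read 22.1, 23.5 and 27.1 units in control and 38.9, 28.8 and 34.7 units in E2, with no overlap, a log2 difference of 0.49 (SE 0.22) and an adjusted p of 0.624 from limma. The median of these 4 was 0.39, from low group means of 13.7 to 34.1 units. That of the 10 members was negative, but they were chosen on these values, so the signs are not compared.

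For the synthesis and turnover of glutathione, limma called 0 of the 10 genes tested, 0 also at an unadjusted p under 0.05, and the median difference was -0.09. Gclc, the catalytic subunit of the enzyme that limits glutathione synthesis, read 51.4, 40.3 and 42.6 units in control and 36.1, 33.3 and 31.4 units in E2, without overlap, with a log2 difference of -0.41 (SE 0.19) and an adjusted p of 0.632. Dpep1, a dipeptidase that cleaves the cysteinylglycine left from glutathione, had a difference of -0.46 (adjusted p = 0.647 from limma), and Gsr, which reduces oxidized glutathione, had one of 0.33 (adjusted p = 0.709 from limma).

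Of the glutathione peroxidases and glutaredoxins, 7 of 13 were tested, with a median of -0.07 and 0 called by limma or at an unadjusted p under 0.05. Gpx1, the main cytosolic peroxidase, had means of 864 ± 104 and 797 ± 78.8 units, and Gpx4, which reduces lipid peroxides in membranes, had 704 ± 62.3 and 656 ± 51.6 units (SD, n = 3 each). Glrx2, a mitochondrial glutaredoxin, had a log2 difference of 0.31 (SE 0.18). All had adjusted p of 0.718 to 0.886 from limma.

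Other enzymes that clear reactive aldehydes, the work for which Gsta4 is known, had 14 of 18 genes tested, 0 called by limma, 0 with an unadjusted p under 0.05 and a median difference of -0.08. Akr1b8, an aldo-keto reductase, read 292, 307 and 315 units in control and 288, 199 and 272 units in E2. Its E2 arrays all lay below control, by little on E2 replicate 1, and the difference was -0.29 (SE 0.15, adjusted p = 0.665 from limma). Akr1a1, an aldehyde reductase, had a difference of -0.19 (SE 0.10) and Aldh1a1, an aldehyde and retinal dehydrogenase, one of -0.42 (SE 0.34), with limma adjusted p = 0.692 and 0.818.

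Of 7 genes for the export of glutathione conjugates, 4 were tested and limma called 0, also 0 at an unadjusted p under 0.05. The transporters Abcc5, Abcc3 and Abcg2 had log2 differences of -0.13, -0.09 and 0.03. All 10 genes of the Nrf2 list were tested, with 0 called by limma, 0 at an unadjusted p under 0.05 and a median difference of -0.07. The reporter target Nqo1, a quinone reductase, read 13.5, 12.5 and 16.7 units in control and 6.15, 11.9 and 11.9 units in E2, with a difference of -0.56 (SE 0.43, adjusted p = 0.802 from limma) that rests on signal near the filter. Hmox1, heme oxygenase, had a difference of -0.29 (SE 0.20) and Maff, a small partner of Nrf2, one of 0.28 (SE 0.24).

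**Figure D5:**
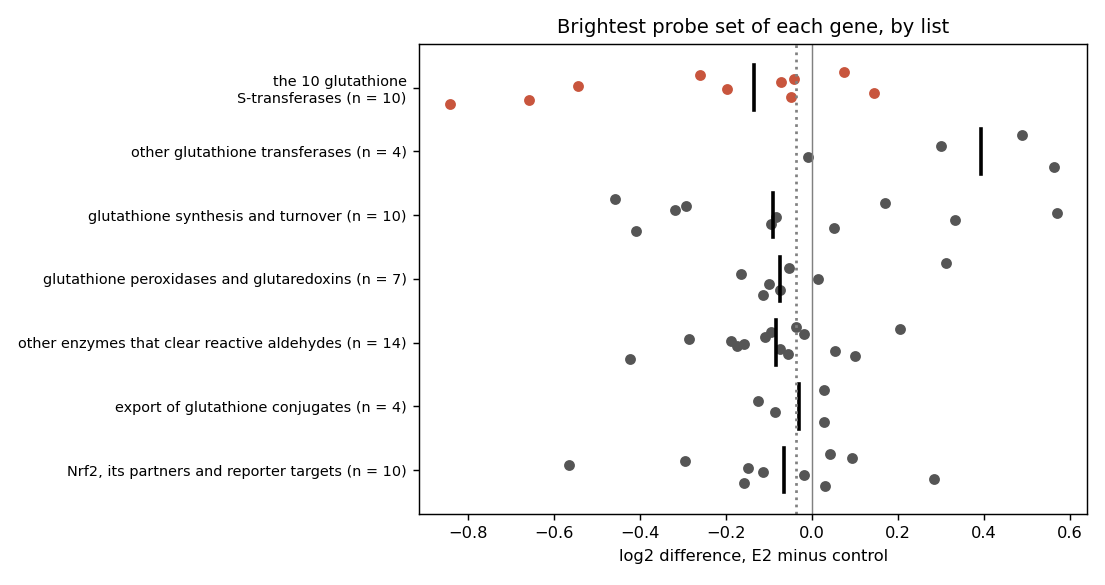
Log2 difference, E2 minus control (horizontal axis), of the brightest probe set of each tested gene, 1 point per gene, for the 10 GST members (red) and the 6 related lists (grey), with each list's median as a black bar, a solid line at 0 and a dotted line at -0.04, the median of all probe sets tested. Gsta4 at -0.84 is the leftmost point, and the medians of 5 related lists lie between -0.09 and -0.03, that of the other transferases at 0.39.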

How the data were processed

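RNA from 3 control and 3 E2 samples was hybridized to Affymetrix mouse arrays. The authors converted the scans with GeneChip Operating Software and Gene Expression Console and deposited linear intensity values, 1 per probe set and array, with versions, signal algorithm, scaling and test not given in the sources used here. Symbols came from the platform annotation, updated by gene identifier: 20380 of 22626 probe sets had 1 symbol, 691 several and 1555 were not listed. Another 64 control probe sets were left out.

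Each array was scaled to the common geometric mean of the medians, and limma 3.58.1 in R 4.3.3 (lmFit, eBayes with a variance trend) compared E2 with control on log2 values, two-sided, with Benjamini-Hochberg adjustment over 14223 probe sets at a threshold of 0.05. All members are given by all probe sets, in each related list the 3 genes of smallest p, and the 5 genes most correlated with Gsta4. The members, lists and tests were chosen with earlier results of these data known. Precision is limited by the number of arrays. The promoter sequences are RefSeq's. The alternatives were no centering, quantile normalization, a pseudocount of 16, signals raised to at least 10 units, filters at 0 and 100 units, eBayes without a trend, no moderation, a replicate block, array weights, each array left out, the pair of arrays with an 18S signal over 100 units left out, and all probe sets of a gene averaged.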

Additional observations from a re-analysis of the deposited data

How the results depend on the processing

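Of the GST probe sets, 1 was called lower with all arrays, and 0 with the values as deposited, without a variance trend, without moderation and with the pair of high 18S arrays left out. With single arrays left out the count was 0 to 1. Of the 10 genes, 8 had a negative difference, 6 as deposited, and 7 with array weights or with the probe sets of a gene averaged. It was 5 of the 6 left by the filter at 100 units, and 5 to 8 with single arrays left out. Gsta4 and Gstm1 moved by more than their replicate SD, to -0.66 and -0.31, with that pair left out, and the cause was not tested. Over all probe sets, 70 were called higher and 36 lower, 112 and 70 with array weights, 39 and 7 as deposited, 15 and 1 without a trend, 3 and 0 without moderation, and 41 higher with the filter at 100 units, where 3921 were tested. With single arrays left out, 37 to 75 were higher and 11 to 31 lower. The same-numbered replicates did not deviate together (correlations of 0.01, -0.05 and -0.06), and with the replicate number as a block 61 were higher, 27 lower and 1 GST probe set was called. In no alternative was a gene of the 6 related lists called.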
